A study of Mus musculus with 6 samples.

Results

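The genes described here build the red blood cell: its membrane skeleton and surface proteins, its haem and the iron taken up for it, and its cytosolic enzymes. They were listed by symbol, 38 in all, and 35 were measured, out of 18193 genes on the arrays. A gene was counted as measured where a probe set of the array annotation mapped to its symbol alone, and the one of highest mean stood for it. Ahsp, Epb41 and Hbb-b1 were not analysed here: no probe set was annotated to Ahsp or Epb41, and the 1 probe set of Hbb-b1 is shared with other beta-globin genes. RNA came from germinal centre B cells, the antigen-activated B cells that divide and are selected in the spleen, purified with magnetic beads from mice immunised with sheep red blood cells. The controls were ImHABCL6 mice, known as a knock-in of tagged BCL6, the repressor that defines germinal centre B cells, into the immunoglobulin heavy-chain locus (3 arrays). ImHABCL6/Uchl1 mice carried that allele and a transgene for Uchl1, a deubiquitinating enzyme (3 arrays), so BCL6 was deregulated in both groups. The promoter of the Uchl1 transgene and the age of the mice are not stated in the labels.

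A red cell precursor fills itself with haemoglobin while it divides, condenses its nucleus and finally expels it. Haem is made by a chain of enzymes that starts with ALAS2 and ends with ferrochelatase inside the mitochondrion, fed by iron that enters with transferrin through the receptor TFRC. The membrane of the finished cell is held by a spectrin and ankyrin network tied to band 3, the anion exchanger Slc4a1. In the mouse, the spleen makes red cells throughout life, and its red pulp holds erythroblasts beside the follicles where germinal centres form. Surface proteins such as the transferrin receptor appear early in this maturation, whereas transcripts such as Alas2 and Bpgm remain abundant late, in cells that are losing their nucleus.

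The promoters of 4 members are shown because these genes mark the extremes of the results that follow. Kel differed most between the groups, Slc25a38 had the smallest p, Alas2 the smallest difference among the lower genes, and Bpgm the largest upward one. Each sequence is the 250 bases before the RefSeq start of the gene (GRCm38.p6), 5′ to 3′ on the gene's strand. Capitals mark the 6-base matches to the GATA motif on either strand, which the erythroid factor GATA1 is known to bind. The motif is GATA with A or T before it and A or G after it, so that AGATAA is one spelling and TGATAG another.
Kel (chr6:41704326-41704575, minus strand): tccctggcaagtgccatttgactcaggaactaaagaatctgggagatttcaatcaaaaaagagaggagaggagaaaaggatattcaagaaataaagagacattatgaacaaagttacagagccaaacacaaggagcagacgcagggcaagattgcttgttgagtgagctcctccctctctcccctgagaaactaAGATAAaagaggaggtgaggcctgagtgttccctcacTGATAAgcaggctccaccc
Slc25a38 (chr9:120110132-120110381, plus strand): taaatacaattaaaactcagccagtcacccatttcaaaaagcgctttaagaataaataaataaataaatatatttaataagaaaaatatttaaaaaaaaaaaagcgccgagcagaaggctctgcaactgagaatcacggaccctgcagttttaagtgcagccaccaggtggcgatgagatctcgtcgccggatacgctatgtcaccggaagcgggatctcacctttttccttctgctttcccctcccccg
Alas2 (chrX:150547167-150547416, plus strand): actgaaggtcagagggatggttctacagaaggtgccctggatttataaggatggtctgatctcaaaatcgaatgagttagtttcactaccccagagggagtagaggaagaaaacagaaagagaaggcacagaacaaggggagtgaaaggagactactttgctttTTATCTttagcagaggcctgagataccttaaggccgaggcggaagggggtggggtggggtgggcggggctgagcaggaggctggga
Bpgm (chr6:34476106-34476355, plus strand): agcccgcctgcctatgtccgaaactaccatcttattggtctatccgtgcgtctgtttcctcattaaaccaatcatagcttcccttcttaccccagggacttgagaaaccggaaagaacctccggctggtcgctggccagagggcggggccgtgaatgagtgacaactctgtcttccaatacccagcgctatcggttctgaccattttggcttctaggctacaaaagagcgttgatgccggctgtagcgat

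Kel had 2 such matches, beginning 56 and 19 bases before the start, and Alas2 had 1, beginning 86 bases before it. Slc25a38 and Bpgm had 0 in this window. Of the 35 measured members, 26 had a promoter in the RefSeq table, with 33 windows among them, and 13 windows held a GATA motif (39.4%, against 26.5% of all 32851 windows). The motif CCNCNCCC, a form of the site of the erythroid factor KLF1, was in 20 of the 33 windows (60.6%) and in 45.9% of all windows. These shares describe letters in the window, several genes had more than 1 window, and a match is not evidence of binding.

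Expression is given as RMA levels on the log2 scale, on which a difference of 1 is 2-fold. Array medians ran from 5.56 to 5.67. Uchl1 was higher on every ImHABCL6/Uchl1 array (5.96, 5.87 and 6.02) than on every control (5.01, 4.999 and 5.02), a difference of 0.94, and Bcl6 differed by 0.24. With 3 arrays in a group precision is limited, and an exact permutation test over them cannot give a two-sided p below 0.1. The labels describe no step against red-cell precursors, whose genes are read here in RNA from a bead preparation. A lower level in such RNA can come from fewer cells of a type or from less RNA per cell, which cannot be told apart here.

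Transcripts of the listed red-cell genes were lower with the Uchl1 transgene on average, with a wide spread between mice and no gene passing the adjusted test. Of the 35 genes 33 were lower in ImHABCL6/Uchl1, with a median log2 difference of -0.91, whereas 49.4% of all genes were lower and the median of all genes was 0.0029. At least 2-fold lower were 15 of the 35, against 0.89% of all genes. All 3 ImHABCL6/Uchl1 arrays lay below all 3 controls for 11 of the 35, against 5.49% of all genes, and the reverse was seen for 0 of the 35, against 3.95% of all genes. By limma's moderated test 18 of the 35 had an unadjusted p under 0.05 and were lower, against 3.85% of all genes. None of the 35 passed the Benjamini-Hochberg adjustment over 18193 genes (limma adjusted p from 0.854 to 0.998), nor did any gene on the array, for a background of 0%. Over all genes 700 lower and 198 higher genes had an unadjusted p under 0.05.

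One mouse weighed heavily in these values, and the controls also differed among themselves. ImHABCL6/Uchl1 replicate 1 was the lowest of the 6 arrays for 34 of the 35 genes, whereas it was the lowest for 17.5% of all genes. Control replicate 3 was the highest for 29 of the 35, against 11.9% of all genes. For 31 of the 35 the level rose from control replicate 1 through 2 to 3, and the share of all genes was not counted. Control replicate 3 exceeded replicate 1 by 1.56 for Kel, 1.48 for Rhag and 1.56 for Epb42, but by 0.06 for Car1 and 0.009 for Blvrb. Most members thus rose and fell together over the arrays, so counts of them are not counts of separate results. ImHABCL6/Uchl1 replicate 1 lay below every control for 34 of the 35 and replicate 3 for 29, but replicate 2 for only 11, and it lay above every control for 5. The median range over the 6 arrays was 2.42 for the red-cell genes and 0.55 for all genes. Without ImHABCL6/Uchl1 replicate 1 the median difference was -0.56, 30 of the 35 genes were lower, and the difference of 31 genes moved by over 1.5 times. Slc25a38, Blvrb, Slc11a2 and Ppox were the 4 that did not move so far. Leaving out control replicate 2 or 3 left 7 or 5 genes with an unadjusted p under 0.05, and leaving out ImHABCL6/Uchl1 replicate 2 raised this count to 30 and the genes without overlap to 29. Without control replicate 1 there were 24 genes without overlap. Fewer arrays make separation easier, and the shares of all genes with an array left out were not counted.

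**Figure D1:**
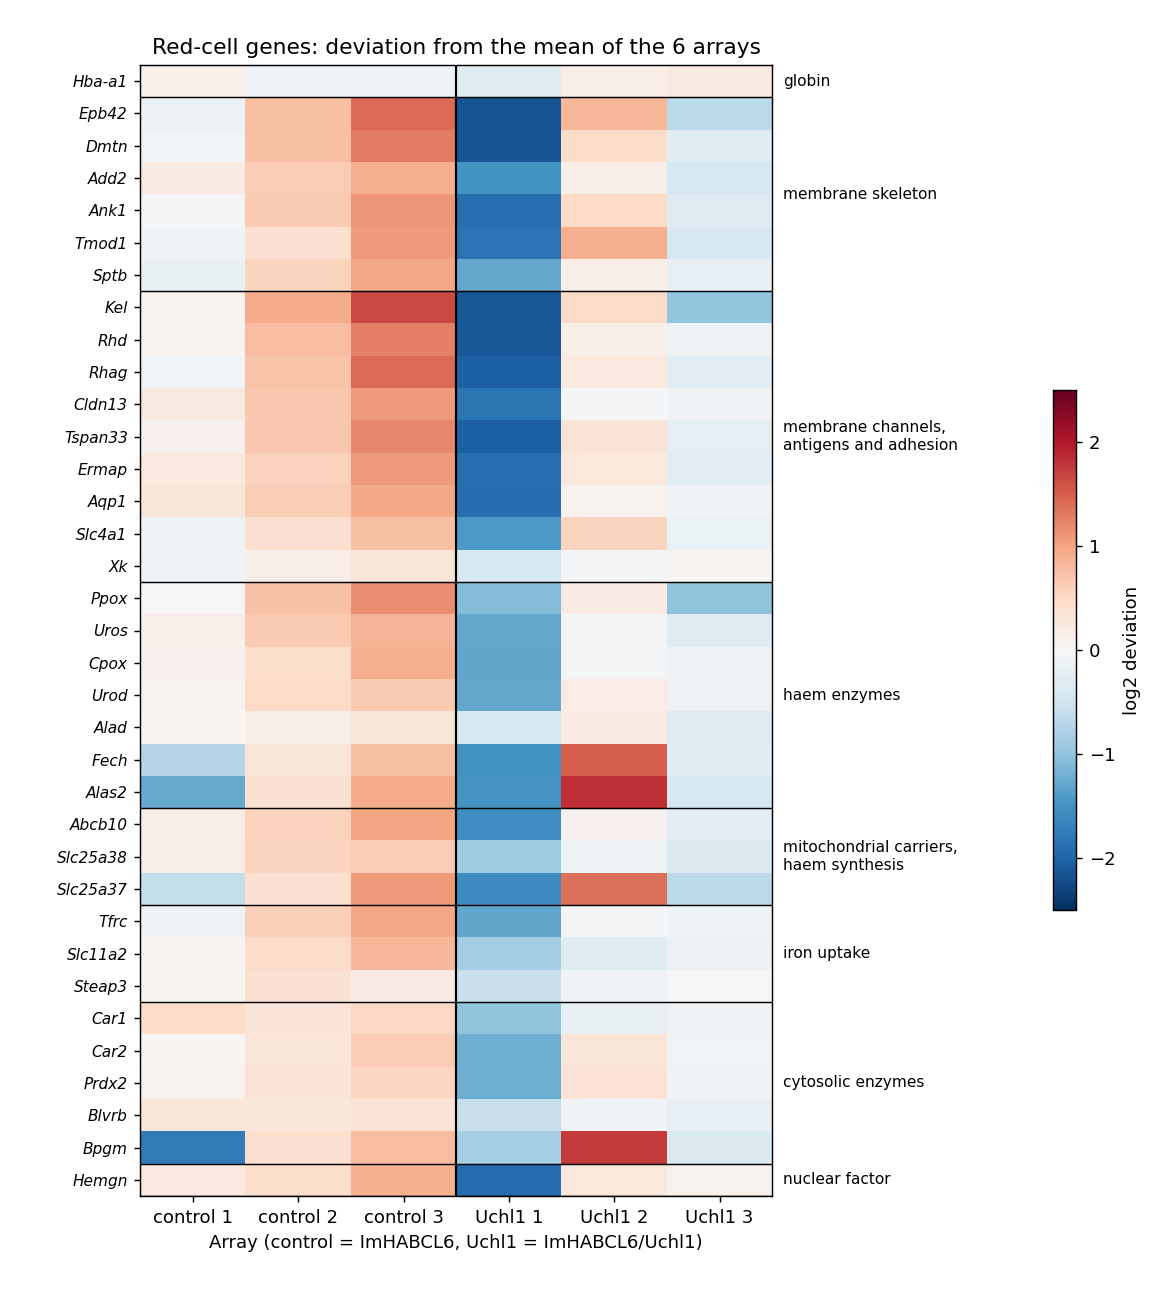
Heat map of the 35 measured red-cell genes (rows, grouped by role) on the 6 arrays (columns), coloured by the log2 deviation from the gene's mean over the arrays. ImHABCL6/Uchl1 replicate 1 is the lowest array for 34 of the 35 genes, and Alas2, Bpgm, Fech and Slc25a37 are highest on ImHABCL6/Uchl1 replicate 2.

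Genes of red-cell surface proteins had the lowest median difference of the groups with over 1 gene, at -1.31 on the log2 scale. All 9 were lower, and 7 were at least 2-fold lower, against 49.4% and 0.89% of all genes. Kel, a blood-group endopeptidase, differed most of all 35 genes, by -1.76 (SE 0.63, 3.39-fold lower, limma adjusted p = 0.983). Its controls read 10.20, 11.05 and 11.77 and the ImHABCL6/Uchl1 arrays 7.998, 10.60 and 9.13, so that replicate 2 lay within the controls. The ammonium channel Rhag (-1.36) and the Rh antigen Rhd (-1.40) were lower by similar amounts, as were Tspan33, a tetraspanin of erythroblasts (-1.31), and Ermap, an adhesion protein of the erythroid membrane (-1.27). Ermap missed separation by the narrowest margin, with a lowest control of 11.79 and ImHABCL6/Uchl1 replicate 2 also at 11.79.

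Cldn13 and Aqp1 were the surface genes whose groups did not overlap, against 5.49% of all genes being lower without overlap. Cldn13, a claudin expressed in mouse erythroid cells, read 11.24, 11.69 and 12.08 in the controls and 9.18, 10.96 and 10.92 in ImHABCL6/Uchl1, a difference of -1.31 (SE 0.46). The water channel Aqp1 read 12.06, 12.37 and 12.71 against 9.84, 11.84 and 11.67, a difference of -1.27 (SE 0.48). In both, ImHABCL6/Uchl1 replicate 1 was far below the other arrays. An exact permutation test gave p = 0.1 for each, the smallest possible. Slc4a1, the anion exchanger, read 13.27, 13.80 and 14.12 against 11.93, 13.92 and 13.20, and its groups overlapped (-0.71, SE 0.46, exact permutation p = 0.4). Xk, a membrane protein bound to Kell, differed by -0.26. Without ImHABCL6/Uchl1 replicate 1 the differences were -1.14 for Kel, -0.73 for Cldn13, -0.63 for Aqp1, -0.64 for Ermap, -0.69 for Rhag and for Rhd, -0.61 for Tspan33, -0.12 for Xk and -0.17 for Slc4a1, and without replicate 2 Slc4a1 stood at -1.17. Array weights put Xk at -0.16, and leaving out control replicate 3 put it at -0.17.

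All 6 measured genes of the membrane skeleton were lower (49.4% of all genes), and their median difference was -1.16 on the log2 scale. Add2, beta-adducin, which caps actin in the skeleton, was the 1 gene of the 6 whose groups separated, at 7.91, 8.34 and 8.61 against 6.20, 7.86 and 7.26 (-1.18, SE 0.39). Here the highest ImHABCL6/Uchl1 array lay just under the lowest control. Over all genes 5.49% were lower without overlap. Epb42, which anchors band 3 to the skeleton, differed by -1.35 (SE 0.70), the actin bundler Dmtn by -1.32 (SE 0.63), ankyrin (Ank1) by -1.14 (SE 0.56), the actin pointed-end cap Tmod1 by -0.91 (SE 0.62) and beta-spectrin (Sptb) by -0.89 (SE 0.40). In each of these 5 ImHABCL6/Uchl1 replicate 2 lay among the controls. Without replicate 1 the differences were -0.60 for Epb42, -0.58 for Dmtn, -0.48 for Ank1, -0.21 for Tmod1, -0.47 for Sptb and -0.73 for Add2. Without replicate 2 they were -2.09 for Epb42 and -1.58 for Tmod1, and without control replicate 3 Tmod1 was at -0.60. The mean of all probe sets of a gene gave smaller differences, of -0.44 for Sptb, -0.61 for Ank1, -0.66 for Dmtn and -0.78 for Add2. Dmtn read by its unsuffixed probe set differed by -0.02.

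All 7 enzymes of haem synthesis were lower (49.4% of all genes), with a median of -0.81, but their differences ran from -1.26 to -0.03. Uros, which closes the tetrapyrrole ring, read 10.72, 11.26 and 11.45 in the controls and 9.33, 10.57 and 10.28 in ImHABCL6/Uchl1 (-1.09, SE 0.33, limma adjusted p = 0.924), without overlap. Cpox, coproporphyrinogen oxidase, also separated, at 10.48, 10.80 and 11.28 against 9.07, 10.32 and 10.24 (-0.98, SE 0.35). Both genes were lowest on ImHABCL6/Uchl1 replicate 1, and without it they differed by -0.72 and -0.58. Ppox, the next oxidase, read 9.88, 10.61 and 11.05 against 8.81, 10.08 and 8.88, a difference of -1.26 (SE 0.40). In Ppox replicates 1 and 3 were low together and replicate 2 lay within the controls. Urod, the decarboxylase between Uros and Cpox, differed by -0.81 (-0.38 without replicate 1). Alad, the second enzyme of the pathway, differed by -0.33 (-0.21 without replicate 1, -0.53 without replicate 2, and -0.15 by its unsuffixed probe set).

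Alas2 and Fech, the first and the last enzyme, had wide spreads. Alas2 read 10.501, 12.14 and 12.70 in the controls and 10.29, 13.60 and 11.38 in ImHABCL6/Uchl1, group means of 11.78 ± 1.14 and 11.76 ± 1.69 (SD, n = 3 each). The difference was -0.03 with a standard error of 0.84 (limma adjusted p = 0.998, exact permutation p = 1). ImHABCL6/Uchl1 replicate 2 had the highest value of all and replicate 1 the lowest, with control replicate 1 close to it. Its sign followed the arrays included, from 0.71 without ImHABCL6/Uchl1 replicate 1 to -0.95 without replicate 2, with -0.67 without control replicate 1, 0.15 and 0.43 without control replicates 2 and 3, 0.16 without ImHABCL6/Uchl1 replicate 3. Array weights put it at -0.52. Fech read 11.57, 12.62 and 13.07 against 10.80, 13.81 and 12.001 (-0.21, SE 0.70, exact permutation p = 0.9). It stood at 0.49, -1.01 and -0.11 without ImHABCL6/Uchl1 replicates 1, 2 and 3 and at -0.64, -0.11 and 0.11 without the same control replicates. With array weights it was at -0.52 and by its unsuffixed probe sets at -0.38. For both genes the spread within a group exceeded the difference between groups.

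All 3 mitochondrial transporters that serve haem synthesis were lower, 2 of them without overlap, against 49.4% and 5.49% of all genes. Slc25a38, the glycine carrier that supplies ALAS2, had the smallest p of all 35 genes. It read 9.58, 9.98 and 10.05 in the controls and 8.53, 9.30 and 9.06 in ImHABCL6/Uchl1, a difference of -0.90 (SE 0.22, 1.87-fold lower, limma unadjusted p = 0.0036, adjusted p = 0.854). Abcb10, which stabilises the iron carrier mitoferrin-1, read 11.31, 11.71 and 12.12 against 9.59, 11.25 and 10.87 (-1.15, SE 0.41, and -0.66 without replicate 1). Neither gene overlapped between groups. Mitoferrin-1 itself (Slc25a37) differed by -0.58 (SE 0.72), with its highest value on ImHABCL6/Uchl1 replicate 2 and its lowest on replicate 1. It was at 0.06 without replicate 1, at -1.42 without replicate 2 and at -0.39 without replicate 3. Leaving out control replicate 1 put it at -1.03, leaving out control replicate 3 at -0.19, and array weights at -1.002.

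Genes of iron uptake were lower in 3 of 3 cases (49.4% of all genes). Slc11a2 (DMT1), which moves iron out of the endosome, read 7.74, 8.15 and 8.52 in the controls and 6.82, 7.40 and 7.55 in ImHABCL6/Uchl1, without overlap (-0.88, SE 0.25, limma adjusted p = 0.877). Steap3, the endosomal iron reductase, also separated, at 7.34, 7.67 and 7.49 against 6.72, 7.21 and 7.28 (-0.43, SE 0.18, and -0.25 without replicate 1). Tfrc, the transferrin receptor, read 12.36, 13.08 and 13.44 against 11.18, 12.43 and 12.36. It differed by -0.96 (SE 0.38, and -0.56 without replicate 1), and the lowest control lay just under 2 of the ImHABCL6/Uchl1 arrays. Dividing B cells also take up iron through this receptor, so its signal need not come from red-cell precursors alone. Which cells gave the signal was not tested for Tfrc or for any other member.

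Among the cytosolic enzymes, Blvrb and Car1 varied least between the controls. Blvrb, biliverdin reductase B, read 12.43, 12.41 and 12.44 in the controls and 11.55, 12.01 and 11.92 in ImHABCL6/Uchl1, or 12.43 ± 0.02 against 11.83 ± 0.24 (SD, n = 3 each). Its difference of -0.60 (SE 0.15, 1.52-fold lower) had the next smallest p after Slc25a38 (limma unadjusted p = 0.00436, adjusted p = 0.854). Carbonic anhydrase 1 (Car1) read 11.41, 11.27 and 11.46 against 9.94, 10.77 and 10.87 (-0.86, SE 0.24, limma adjusted p = 0.877). The groups of both genes were apart, and Car1 differed by -0.56 without replicate 1.

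Car2, another carbonic anhydrase, read 13.65, 13.90 and 14.24 against 12.37, 13.90 and 13.53 (-0.66, SE 0.37), and its groups overlapped. Without replicate 1 it was at -0.21. Prdx2, a peroxidase abundant in red cells, differed by -0.64, but its other probe set read 6.76, 6.91 and 7.13 in the controls and 5.65, 9.02 and 8.57 in ImHABCL6/Uchl1, and the mean of both differed by 0.09. Without replicate 1 Prdx2 was at -0.19 and without replicate 2 at -0.98. Bpgm, which makes the 2,3-bisphosphoglycerate that loosens oxygen from haemoglobin, was higher, as was 1 other member, Hba-a1, by a dim probe set. Bpgm read 10.37, 12.53 and 12.89 in the controls and 11.28, 13.87 and 11.76 in ImHABCL6/Uchl1 (0.37, SE 0.80, exact permutation p = 0.8). Control replicate 1 was its lowest array and ImHABCL6/Uchl1 replicate 2 its highest, 11.3-fold apart. The difference was -0.41 without either of those arrays and -0.29 with array weights. It was 0.67 and 0.85 without control replicates 2 and 3, and 0.88 and 0.64 without ImHABCL6/Uchl1 replicates 1 and 3.

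Hemgn, a nuclear protein of erythroid precursors, read 12.92 ± 0.32 in the controls and 11.88 ± 1.21 in ImHABCL6/Uchl1 (SD, n = 3 each). The difference was -1.04 (SE 0.52), and -0.35 without replicate 1 and -0.66 with array weights. The probe set annotated to Hba-a1 alone was dim, at 4.32, 4.10 and 4.09 against 3.89, 4.35 and 4.41, and it was the 1 member below the median gene of the arrays. Its difference of 0.05 ranged from -0.05 to 0.21 with 1 array left out. This probe set read far below those shared with Hba-a2, so its direction says little about Hba-a1 RNA. The other globin probe sets that list Hba-a1 or Hbb-b1 are shared by several genes and name none of them. One shared by Hba-a1 and Hba-a2 read between 15.01 and 15.14 on all 6 arrays, beside a highest value of 15.14 on any array. The 1 shared by 4 beta-globin genes read 14.71, 14.91 and 14.96 in the controls and 14.70, 15.01 and 14.84 in ImHABCL6/Uchl1. Both lay close to the highest value of the arrays, so their narrow range says little about the spread between mice. Another probe set shared by Hba-a1 and Hba-a2 read 13.17, 13.47 and 13.79 against 13.12, 13.83 and 13.39, highest on ImHABCL6/Uchl1 replicate 2 and lowest on replicate 1.

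Probe sets not used for the values above mostly gave the same direction. For the 20 members with more than 1 probe set, 39 further probe sets were available, and 3 had the opposite sign. They were the Prdx2 probe set above, one of Ank1 (0.13) and one of Sptb (0.01).

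**Figure D2:**
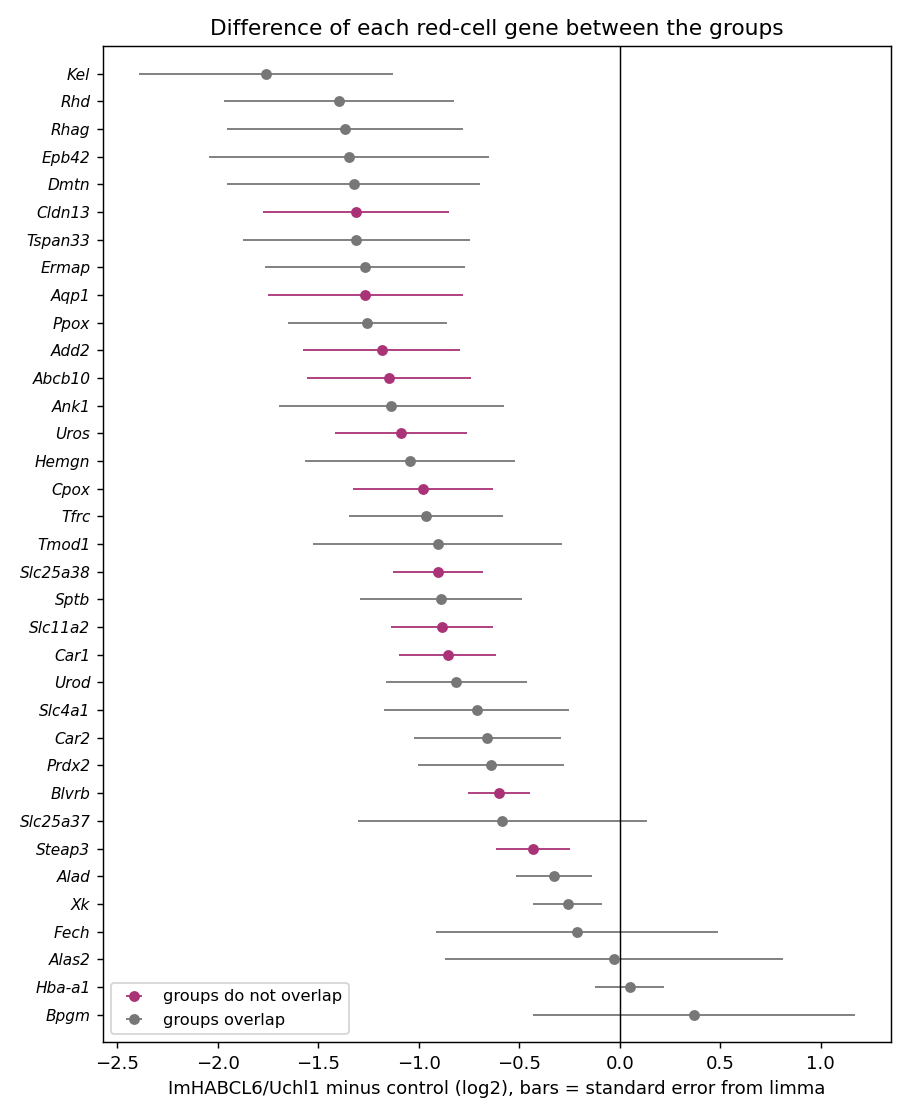
Difference between ImHABCL6/Uchl1 and control on the log2 scale for each of the 35 genes (points) with the standard error from limma (bars), in order of size. Genes run from Kel at -1.76 to Bpgm at 0.37, and the 11 genes whose groups do not overlap lie between -1.31 and -0.43.

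**Figure D3:**
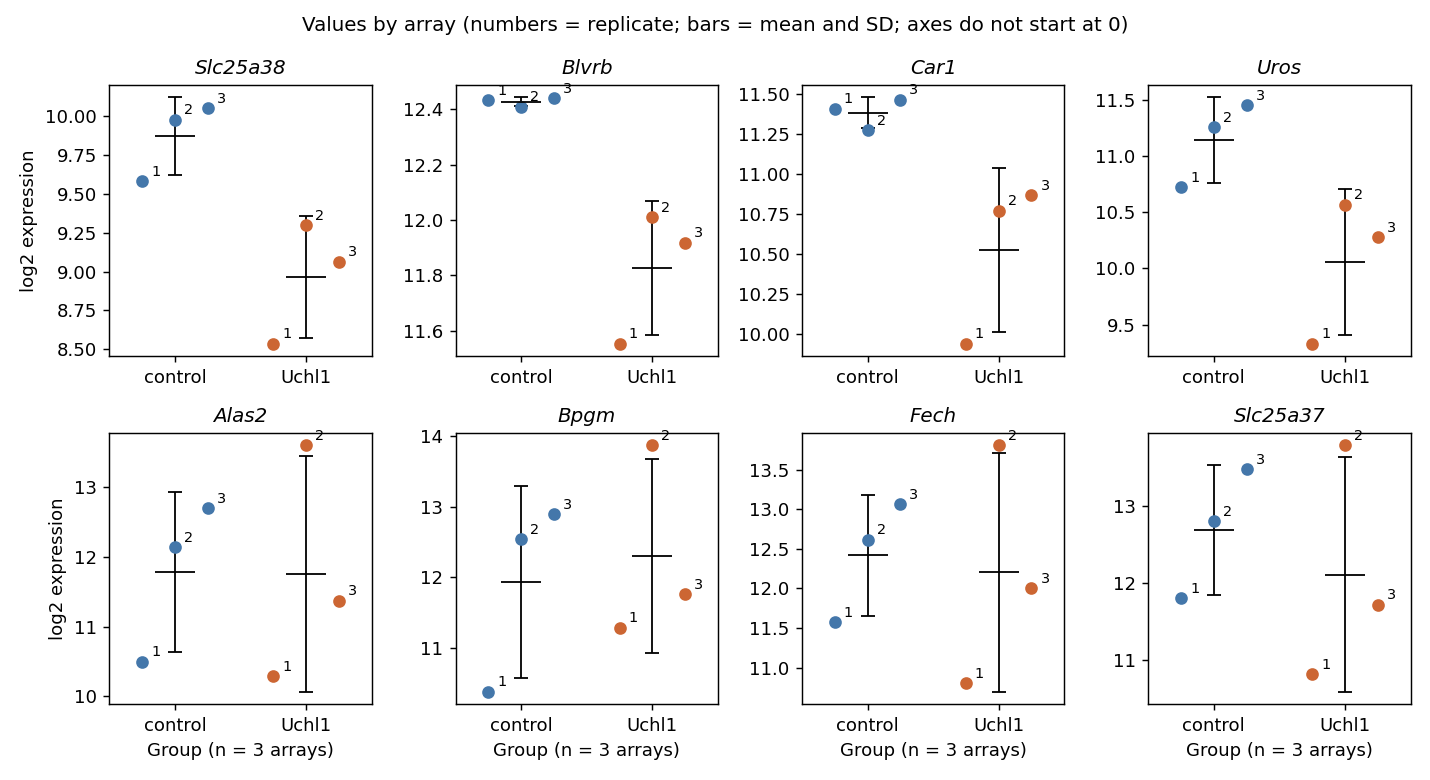
Log2 expression of 8 genes in the 3 controls and the 3 ImHABCL6/Uchl1 arrays (points numbered by replicate, with the mean and SD). In the top row (Slc25a38, Blvrb, Car1 and Uros) the groups do not overlap, and in the bottom row (Alas2, Bpgm, Fech and Slc25a37) ImHABCL6/Uchl1 replicate 2 is the highest array. The 8 genes were chosen after their values were seen.

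Genes of early and of late erythroid maturation were then compared within each array. The lists came from general knowledge of erythroid maturation. They were chosen with earlier results of these data known, so the contrast between them is a description only. The early genes were Car1, Tfrc, Rhag, Ermap, Tspan33, Cldn13, Aqp1 and Hemgn, and all 8 were measured. The late genes were 13, of which 10 were measured: Slc4a1, Alas2, Hba-a1, Epb42, Bpgm, Dmtn, Xk, Tmod1, Slc25a37 and Fech. All 8 early genes were lower in ImHABCL6/Uchl1, by -1.27 at the median. Of the 10 late genes 8 were lower, with a median of -0.42. The groups did not overlap for 3 of the 8 early and 0 of the 10 late genes, against 5.49% of all genes being lower without overlap; at that share a count of 0 in 10 is near the background, and the difference between the lists was not tested.

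As the mean log2 deviation of each list from its level over the 6 arrays, the early genes stood at 0.18, 0.58 and 1.01 in the controls and at -1.74, 0.11 and -0.13 in ImHABCL6/Uchl1. All 3 controls lay above the ImHABCL6/Uchl1 arrays. The late genes stood at -0.47, 0.39 and 0.83 against -1.37, 0.93 and -0.30, and here ImHABCL6/Uchl1 replicate 2 was the highest array, while control replicate 1 lay below replicate 3 of ImHABCL6/Uchl1. Among the controls, late minus early came to -0.65, -0.19 and -0.18, and among the ImHABCL6/Uchl1 arrays to 0.37, 0.82 and -0.17. The ImHABCL6/Uchl1 arrays lay above the controls, replicate 3 by a narrow margin, and the means differed by 0.68 with SDs of 0.27 and 0.50 (n = 3 each). That order rested on Hba-a1 and Xk, the late genes of lowest level, with means of 4.19 and 6.43 over the 6 arrays. Without them, a choice made after seeing the data, late minus early was -0.77, -0.10 and -4.1e-05 against 0.12, 1.04 and -0.28, and the groups overlapped, with means 0.58 apart. Leaving out Tfrc from the early genes gave a difference between the means of 0.71, and leaving out Bpgm, Fech and Slc25a37 from the late genes gave 0.53. Without ImHABCL6/Uchl1 replicate 2 it was 0.44.

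The ratio of 3′ to 5′ signal, a measure of RNA quality, was read beside the late genes. The array's control probe sets for Gapdh at the 3′ end exceeded those at the 5′ end by 1.26, 1.32 and 1.76 (log2) in the controls and by 1.21, 1.94 and 1.22 in ImHABCL6/Uchl1. The 2 arrays with the largest excess, ImHABCL6/Uchl1 replicate 2 and control replicate 3, were also the 2 highest for the late genes. For Actb the excess was 0.95, 0.80 and 1.04 against 0.72, 1.03 and 0.79, with the same 2 arrays on top. For Tfrc, itself a member, the order differed, at 1.266, 1.165 and 1.391 against 1.154, 1.157 and 1.484. There ImHABCL6/Uchl1 replicate 3 was highest and replicate 2 lay below every control. The part of RNA quality in the late genes was not tested.

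**Figure D4:**
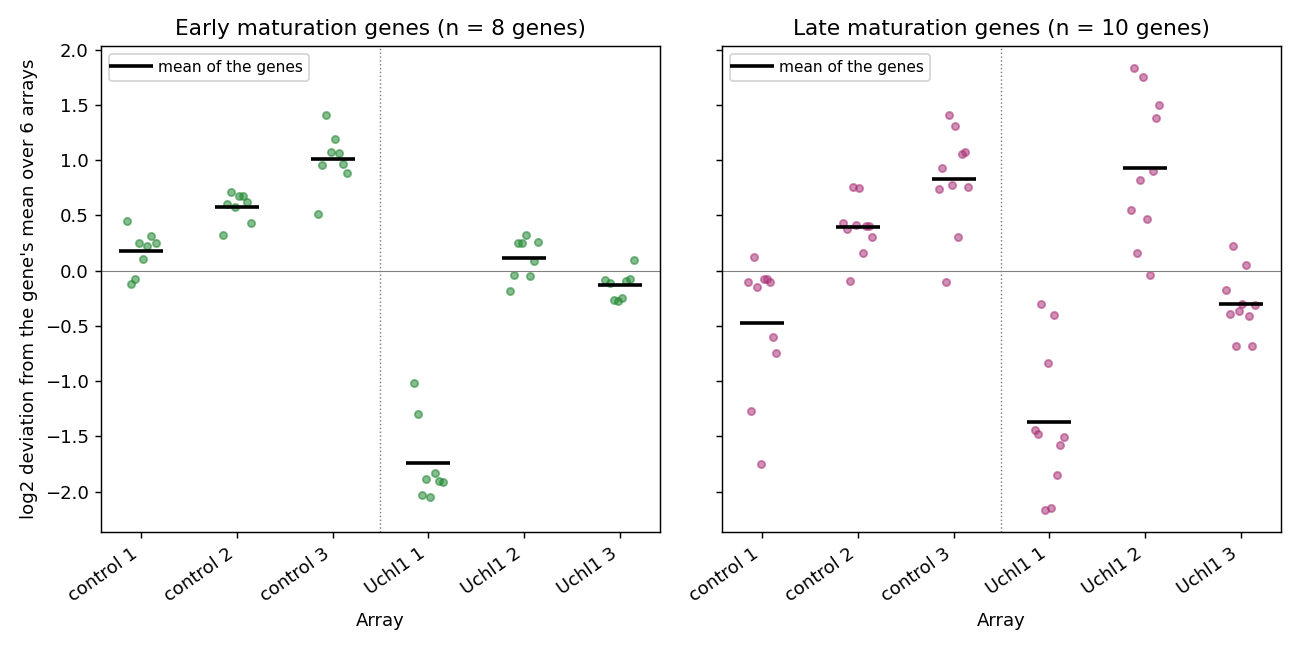
Deviation of each early (left, 8 genes) and late (right, 10 genes) maturation gene from its own mean over the 6 arrays, on the log2 scale, by array; bars are the mean of the genes. ImHABCL6/Uchl1 replicate 1 is lowest in both panels, and replicate 2 lies at 0.11 for the early and at 0.93 for the late genes.

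Further genes of the same pathways were counted from lists of their own. Of 21 measured genes of red-cell structure and metabolism outside the list 15 were lower (median -0.25), 5 without overlap (5.49% of all genes). Tpm3, a tropomyosin named after its values were seen, was the 1 gene higher without overlap (0.20, against 3.95% of all genes). Kcnn4, the Gardos potassium channel, differed by -0.70 (SE 0.21), the adhesion protein Icam4 by -1.42 (SE 0.54), alpha-adducin (Add1) by -0.60 and the self marker Cd47 by -0.62. Of 21 genes of haem and iron handling 16 were lower (median -0.16), 7 without overlap (5.49% of all genes). Tmem14c, a porphyrin carrier of the mitochondrial membrane, differed by -0.68 (SE 0.20) and the iron exporter ferroportin (Slc40a1) by -1.01 (SE 0.31). Bach1, a haem-sensing repressor, differed by -0.57 and the transferrin receptor Tfr2 by -0.62. These genes were named for their p. None of either list passed the limma adjustment over all genes (0 of 21 each), and 5 and 6 were lower with an unadjusted p under 0.05, against 3.85% of all genes.

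Of 11 regulators of the erythroid lineage 10 were lower (median -0.89), 4 without overlap (5.49% of all genes). Their mean level ran from 9.15 to 9.72 over the controls and from 8.07 to 9.12 over ImHABCL6/Uchl1. Gata1 differed by -1.10, Klf1 by -1.30 and the cofactor Zfpm1 by -0.89. The 10 measured markers of megakaryocytes and platelets averaged 7.46 to 8.23 against 7.24 to 8.24, with 3 of 10 lower, for example Gp9 (-0.30), Pf4 (0.27) and Gp1bb (0.25). The 13 macrophage markers averaged 4.43 to 4.598 against 4.42 to 4.56 (6 of 13 lower, with Axl at -0.27, C1qa at -0.33 and Vcam1 at 0.17). Markers of neutrophils were lower in 7 of 8 cases, at 4.99 to 6.08 against 4.97 to 5.25, with Mpo (-1.27), Camp (-0.36) and Ngp (-0.26). T and NK cell markers averaged 4.86 to 4.97 against 4.71 to 5.004 (7 of 10 lower, with Nkg7 at -0.19, Ncr1 at -0.10 and Cd3d at 0.11).

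B-cell markers were higher in 8 of 9 cases (median 0.22), 3 without overlap (3.95% of all genes). Their mean level ran from 10.62 to 10.68 over the controls and from 10.76 to 11.18 over ImHABCL6/Uchl1, highest on replicate 1, the array with the lowest red-cell signal. Fcer2a differed by 0.57, Pax5 by 0.48 and Ebf1 by 0.55. Markers of germinal centre B cells overlapped, at 10.42 to 10.63 against 10.18 to 10.80 (4 of 9 lower, with Ugcg at -0.33, Bcl6 at 0.24 and Gcsam at -0.20). Cell division genes, active in both cell types, were lower in 15 of 15 cases, 5 without overlap (5.49% of all genes). They averaged 11.82 to 11.95 against 11.56 to 11.65, with Cdc6 (-0.69), Tk1 (-0.40) and Cdk1 (-0.31). The part of these markers in the differences of the red-cell genes was not tested.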

How the data were processed

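Biotin-labelled RNA was read on Affymetrix mouse expression arrays by a 3′ protocol, per the labels. What the authors deposited is 1 log2 level for each probe set and array; RMA and Partek are the tools named in the submitters' processing notes, without version. RMA subtracts background and is meant to equalise the arrays, although the array medians here still ran from 5.56 to 5.67. Dim probe sets can show smaller differences on such levels, and detection calls were not used here. Of 45101 probe sets, 34945 had exactly 1 gene symbol in GEO's platform annotation, 932 had several, and 64 controls were set aside. Symbols were checked by Entrez identifier against a RefSeq table (GRCm38.p6), which changed 0 of them. For a gene with several probe sets, the one with the highest mean was used, giving 18193 genes.

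Groups were compared over all genes with limma 3.58.1 in R 4.3.3 (lmFit, eBayes), two-sided, with Benjamini-Hochberg adjustment and a threshold of 0.05, and single genes also with exact permutation tests (scipy 1.17.1). The fit was tested on simulated data. Arrays of a group were taken as separate mice, as the series' design text gives; the replicate numbers are not stated to pair mice. Members, gene lists and stage lists were chosen with earlier results of these data known, the stages from general knowledge of erythroid maturation. Values of every array are given for the 10 members of smallest p, those without overlap, those higher by over 0.2 and 6 measured genes of a short list (Slc4a1, Alas2, Hba-a1, Car2, Tfrc and Fech). From each further list the genes of smallest p are named, 4 from pathway lists and 3 from marker lists. Alternatives were the mean of all probe sets, leaving out suffixed probe sets (names ending in _x_at, _s_at or _a_at) or dim genes (below the median gene), median centring, quantile normalization, limma's trend with robust variances, weights per array, the replicate number as a block, leaving out each array, and other stage lists.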

Additional observations from a re-analysis of the deposited data

How the results depend on the processing

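No gene passed the adjusted threshold under any of the 14 settings tried, and 29 of the 35 red-cell genes kept their direction in all of them in which they were measured. Members lower were 30 to 35, their median difference -1.20 to -0.56, and late minus early 0.44 to 0.93 across the arrays left out. Genes without overlap were 6 and genes with an unadjusted p under 0.05 were 10 after quantile normalization, and 28 genes had such a p with array weights. Leaving out 1 array gave 11 to 29 genes without overlap and 5 to 30 with such a p; fewer arrays make separation easier. With the replicate block 27 genes had an unadjusted p under 0.05 and 0 passed. The shares of all genes under these settings were not counted, so these counts of members have no background beside them. Deviations of same-numbered arrays from their group means correlated at 0.43, 0.19 and -0.26, and those of unlike-numbered arrays at -0.59 to 0.53. Deviations from a group's own mean depend on each other, so these correlations cannot decide whether arrays were paired. The numbers were not taken as pairs because no pairing is stated. Late minus early was 0.71 without Tfrc, 0.53 without Fech, Bpgm and Slc25a37, and 0.58 without Hba-a1 and Xk, chosen after seeing the data.

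The other 6 genes reversed in 14 cases. Alas2 was at 0.0043 after quantile normalization, 0.15 and 0.43 without control replicates 2 and 3, and 0.71 and 0.16 without ImHABCL6/Uchl1 replicates 1 and 3 (range with 1 array left out -0.95 to 0.71). Fech was at 0.11 without control replicate 3 and 0.49 without ImHABCL6/Uchl1 replicate 1, where Slc25a37 was at 0.061 (ranges -1.01 to 0.49 and -1.42 to 0.061). Bpgm was at -0.29 with array weights and at -0.41 without control replicate 1 and -0.41 without ImHABCL6/Uchl1 replicate 2 (range -0.41 to 0.88). Hba-a1 was at -0.016 and -0.049 without ImHABCL6/Uchl1 replicates 2 and 3 (range -0.049 to 0.21), and Prdx2 at 0.085 with the mean of probe sets. The cause was not tested.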

Other observations

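A pair of further globin genes, picked after their values were seen, were read by probe sets of their own. One probe set of Hbb-b2, an adult beta-globin gene, read 9.604, 10.498 and 11.18 in the controls and 9.67, 12.12 and 10.49 in ImHABCL6/Uchl1, so that ImHABCL6/Uchl1 replicate 2 was highest and control replicate 1 lowest. Its other probe set differed in order, with controls of 5.84, 4.43 and 4.57 against 6.13, 4.36 and 5.68, ImHABCL6/Uchl1 replicate 2 being lowest and replicate 1 highest. Hbb-bh1, an embryonic globin gene, read 8.27, 9.23 and 8.87 against 9.17, 10.11 and 7.37 by one of its 3 probe sets, and in all 3 ImHABCL6/Uchl1 replicate 2 was highest and replicate 3 lowest. Beta-globin genes are close in sequence, and how far these probe sets read each other's transcripts was not tested.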
